A study of Mus musculus with 5 samples.

Results

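The cytosolic ribosomal proteins were followed as mRNAs in single cells of mouse organoids, which are gut epithelium cultured in a gel. The members were the genes whose symbol names a protein of the small subunit (Rps), of the large subunit (Rpl) or of the stalk (Rplp), with Rpsa included and the S6 kinases left out. Of 84 matching genes, 77 had at least 50 unique molecular identifiers (UMIs, each counting 1 captured mRNA molecule) over all libraries, out of 18418 genes in the tables. These 77 were 31 proteins of the small subunit, 44 of the large subunit and the stalk proteins Rplp0 and Rplp1. The choice used symbols and a minimum count over all libraries together, not a difference between libraries.

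The 5 libraries were 1 plate of 384 wells each, made by SORT-seq with the CEL-Seq2 chemistry, which counts mRNAs by a short stretch next to their poly(A) tail. Cys and Bud were small intestinal organoids of genotype Lkb1 -/-, het was Lkb1 +/-, fetal was organoids of fetal intestine of wild-type genotype, and WT was small intestinal organoids of wild-type genotype. Cys and Bud are marks in the titles that the labels do not explain, so these libraries were kept apart. The labels describe growth medium with Egf, R-spondin and Noggin, and give neither the age of the animals nor the number of cultures, animals or edited clones. After wells with under 1000 UMIs were left out, 359 Cys, 318 Bud, 351 het, 371 fetal and 302 WT cells remained, with 4981282, 4199196, 4395349, 5865507 and 4035219 UMIs in all.

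A ribosome joins a small subunit, which reads the mRNA, to a large subunit, which links the amino acids. Most ribosomal protein mRNAs begin with a 5' terminal oligopyrimidine tract (TOP), a C followed by further C or T bases, through which the kinase complex mTORC1 and the RNA-binding protein LARP1 control their translation and stability. LKB1, the kinase encoded by Stk11, switches on AMPK, which restrains mTORC1. In the gut epithelium, dividing crypt cells make many ribosomes, and differentiated cells of the villus make fewer.

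With 1 library per group there was no replicate, so no test between groups could be made and no p-value is given. Every comparison describes the libraries compared, and 95% intervals, given in brackets, cover counting error only. A gene was called higher or lower when its ratio of CPM (UMIs scaled to the library total) was at least 1.5 in that direction and the exact conditional binomial interval excluded 1. For log2 ratios, 10 CPM were first added to each of both levels, which shrinks the ratio of low genes. CPM are shares of a library, so less ribosomal protein mRNA and more of other mRNAs cannot be told apart. The 4 comparisons against WT share that library.

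The plates held epithelial cells and differed in quality. All 7 epithelial markers were read in each library, at summed levels of 5129 to 6517 CPM, whereas immune, mesenchymal and endothelial lists summed to at most 2.62 CPM. Wells with over 2% of UMIs from Kcnq1ot1, a mark often tied to damaged cells in this method, numbered 22 in Cys, 43 in Bud, 60 in het, 2 in fetal and 22 in WT. Rn45s, the precursor of ribosomal RNA, made up 6.36% of UMIs in Cys and between 2.71% and 3.50% elsewhere. Plates used the same set of 384 well codes, so cells were told apart by plate.

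Start regions of 5 members are shown because the members' regulation is tied to the pyrimidine tract at the start of the mRNA and because these genes carry differences described below. Each window runs from 12 bases before the RefSeq start (GRCm38.p6) to 18 bases from it, 5' to 3' on the transcribed strand, and capitals mark a C followed by at least 5 further C or T.
Rps6: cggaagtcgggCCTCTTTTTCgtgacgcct
Rps26: gggcaagccgccggatCCTCTTTCgagtct
Rps27l: CTCCTCCCCgccgcctctatcccggaagtt
Rpl11: acccataaggccacggggccggaagtctcc
Rpl22: gccctgggaaaagcaatagctggccgatcg

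These windows lie at chr4:86857350-86857379 (minus strand) for Rps6, chr10:128626489-128626518 (minus) for Rps26, chr9:66946074-66946103 (plus) for Rps27l, chr4:136053376-136053405 (minus) for Rpl11 and chr4:152325714-152325743 (plus) for Rpl22. The run of Rps27l spans bases 1 to 9 of its window and so lies wholly before the annotated start. The RefSeq start lies 241 bases from the GENCODE 5' end of the gene for Rps26, 45 for Rps6, 35 for Rpl11, 16 for Rpl22 and 0 for Rps27l. The GENCODE 5' ends of Rps26, Rps6 and Rpl11 thus fall outside the windows shown, and that of Rpl22 may. A window without a run therefore does not show that the mRNA lacks a tract. Of 77 members, 57 matched an entry of the RefSeq table. Such a run stood in the window of 30 of the 57 (52.6%) on the transcribed strand, against 22.1% of 16459 other protein-coding genes. It reached the start or bases after it in 25 of the 57 (43.9%), against 15.1% of the other genes. On the opposite strand it stood in 10.5% of members and 24.5% of the other genes. The letters CTTTC stood in 22.8% of member windows, on the transcribed strand, and in 3.41% of the others. On the opposite strand, CTTTC stood in 5.26% of members and 3.04% of the others. The letters CCGGAAG, the core that ETS factors bind, stood on either strand within 300 bases around the start in 38.6% of members and 12.2% of other genes. A match is a description of the letters, and RefSeq starts can lie off the start used in these cells. Median log2 ratios against WT of the 30 members with the run and the 27 without it were -0.21 and -0.25 in Cys, 0.20 and 0.13 in Bud, 0.15 and 0.08 in het, and -0.34 for both sets in fetal.

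Ribosomal protein mRNAs were among the most abundant in every library. In WT the median member stood at 1910 CPM and the highest, Rpl4, at 5814 CPM. Rpl4, Rpsa, Rps2 and Rps6 were among the 5 members with the most UMIs in WT. Rpl4, a protein of the peptide exit tunnel, was read at 4022 CPM in Cys, 6156 in Bud, 5467 in het, 4572 in fetal and 5814 in WT. Rpsa, the small subunit protein also described as a laminin receptor, was read at 3389.7 CPM in Cys, 4673 in Bud, 4515 in het, 3778 in fetal and 4628 in WT. Rps2, which lies at the mRNA entry channel, was read at 4278 CPM in Cys, 4540.4 in Bud, 4202 in het, 3544 in fetal and 4321 in WT. Rpl4 and Rpsa were lowest in Cys and Rps2 was lowest in fetal. UMIs count 1 tag per molecule and were not divided by length.

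Of the 77 members, 4, Rps15a, Rpl30, Rpl34 and Rpl37, were under 50 CPM in every library. Another 7 matching genes fell under the minimum and were Rplp2, Rps27, Rpl26, Rpl22l1, Rpl10l, Rpl39l and Rps4y2. Rplp2, the partner of Rplp1 in the stalk, had 2 UMIs in Cys, 2 in Bud, 5 in het, 2 in fetal and no entry in WT. Rps27 had 2 UMIs in Cys, 1 in Bud, 5 in het, 10 in fetal and 3 in WT. Rplp2 and Rps27 encode proteins of the ribosome. Many ribosomal protein genes have near-identical pseudogenes, and the sources used here do not say how reads matching several places were handled. The share of 60-base windows in the last 300 bases of the annotated transcripts that also occur in another gene was 49.0% for the median of the other 73 members and 32.0% for the 4 low ones (0% to 78.5%). Among the genes under the minimum it was 71.2% for Rpl26, 59.6% for Rpl22l1, 56.3% for Rps27, 38.0% for Rplp2 and 0% for Rpl10l and Rpl39l. The part of shared sequence in the low counts was not tested. Levels of single members are therefore uncertain, while ratios between libraries compare the same gene.

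The summed share of ribosomal protein mRNA differed between libraries. It was 13.5% of UMIs in Cys, 18.1% in Bud, 17.3% in het, 12.1% in fetal and 16.0% in WT organoids, the widest counting interval being 18.05% to 18.12% in Bud. Relative to WT the summed level was 0.841 in Cys, 1.13 in Bud, 1.08 in het and 0.754 in fetal. Between the Lkb1 -/- libraries, Cys stood at 0.746 of Bud. The median cell held 13.5% in Cys, 18.2% in Bud, 17.5% in het, 12.02% in fetal and 16.4% in WT. The interquartile range of cells was 11.7% to 14.9% in Cys, 15.5% to 20.03% in Bud, 13.8% to 20.1% in het, 10.8% to 13.3% in fetal and 14.4% to 18.4% in WT. These ranges did not overlap between fetal and WT, nor between Cys and Bud, whereas those of het and WT did. The median cell showed UMIs of 72 members in each library.

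**Figure D1:**
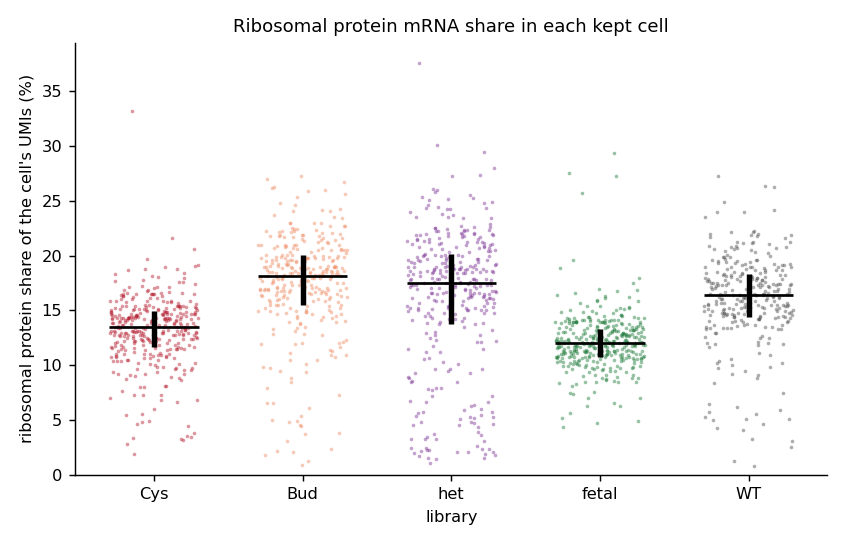
Share of ribosomal protein mRNA in the UMIs of each kept cell (y axis, percent) by library (x axis). Points are cells, thick bars the interquartile range and lines the medians, which were 13.5% in Cys, 18.2% in Bud, 17.5% in het, 12.02% in fetal and 16.4% in WT; het has a tail of 34 cells under 5%.

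Cells low in ribosomal protein mRNA were most numerous in het, where 34 cells stood under 5%, against 12 in Cys, 14 in Bud, 3 in fetal and 9 in WT. The wells rich in Kcnq1ot1 held a median of 4.87% in Cys, 13.95% in Bud, 4.76% in het, 13.3% in fetal and 5.62% in WT. In the other wells the median was 13.7% in Cys, 18.3% in Bud, 18.4% in het, 12.02% in fetal and 16.5% in WT. With equal weight per cell the het share was 16.1% and the WT share 16.0%, so the excess of het over WT in the summed UMIs depended on how cells were weighted. The part of damaged cells in these shares was not tested.

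Across cells of one library, the ribosomal protein share moved with the elongation factors and other TOP mRNAs, and less with the rest of the translation machinery. Spearman's rank correlation with the list of elongation factors and other TOP mRNAs, computed over cells that share a library and its depth, was 0.73 in Cys (359 cells), 0.69 in Bud (318), 0.82 in het (351), 0.68 in fetal (371) and 0.68 in WT (302). With the initiation factors it was 0.32 in Cys, 0.27 in Bud, 0.48 in het, 0.22 in fetal and 0.08 in WT. With the ribosome biogenesis genes it was 0.27 in Cys, 0.42 in Bud, 0.61 in het, 0.18 in fetal and 0.27 in WT. Without the wells rich in Kcnq1ot1, it was 0.21 in Cys, 0.14 in Bud, 0.17 in het, 0.22 in fetal and -0.07 in WT for the initiation factors. For the biogenesis genes it was then 0.15 in Cys, 0.30 in Bud, 0.43 in het, 0.18 in fetal and 0.16 in WT. For the elongation factors and other TOP mRNAs it then lay between 0.64 in WT and 0.72 in het. The stem cell markers were Lgr5, Smoc2, Ascl2, Olfm4 and Axin2. Over all kept cells, the correlation with them was 0.01 in Cys, 0.44 in Bud, 0.54 in het, 0.02 in fetal and 0.40 in WT. In the 75 WT cells highest in these markers the median share was 17.5%, and in the 75 lowest 14.004%. In Bud the medians were 19.04% in the 79 highest and 15.3% in the 79 lowest, and in het 20.4% in the 87 highest and 12.5% in the 87 lowest. Without the wells rich in Kcnq1ot1, the correlation with the stem markers was 0.38 in Bud, 0.42 in het and 0.31 in WT. The same markers summed to 52.8 CPM in Cys and 146 in fetal, with Olfm4 at 0 in Cys and Smoc2 at 0 in fetal, and to 991 in Bud, 889.8 in het and 936 in WT. With the list of cycling markers the correlation was 0.003 in Cys, 0.26 in Bud, 0.35 in het, -0.0025 in fetal and 0.06 in WT. Without the wells rich in Kcnq1ot1 it was 0.16 in Bud, 0.28 in het and -0.02 in WT. With the enterocyte markers it was 0.06 in Cys, 0.25 in Bud, -0.12 in het and -0.21 in WT. The correlation with Rn45s over all kept cells was negative in each library, between -0.53 in het and -0.24 in fetal. Without the wells rich in Kcnq1ot1 it stayed negative, between -0.46 in Bud and -0.23 in Cys, with het at -0.32.

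Cys organoids held less mRNA of most ribosomal proteins than WT. The median member had a log2 ratio of -0.24, against -0.06 over all 11782 genes measured and -0.08 over the 1924 genes at a mean of 100 CPM or more. Of 77 members, 1 was called higher (17.6% of all genes measured) and 3 lower (22.0% of all genes). The lower count was 6 with equal weight per cell (26.2% of all genes), 1 with median-of-ratios scaling (19.0% of all genes) and 16 with het in place of WT (21.3% of all genes), where 2 were higher (18.9% of all genes). At a 1.2-fold threshold 33 members (42.9%) were lower, against 31.5% of all genes and 35.0% of the abundant ones. The 4 higher ones (5.19%) compare with 24.1% of all genes and 28.2% of the abundant ones. The lower members were spread over both subunits, 14 of the small and 17 of the large subunit, with Rplp0 and Rplp1 besides. Cell type markers differed far more: stem markers were lower in 5 of 5 genes and summed to 52.8 CPM in Cys against 936 in WT, and enterocyte markers were lower in 7 of 7 and summed to 16.3 CPM in Cys against 3176 in WT. Olfm4 was at 0 in Cys. The part of cell types, and that of Rn45s at 6.36% in Cys against 3.29% in WT, was not tested.

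The members called lower in Cys were Rpl8, Rpl3 and Rpl37, all on chromosome 15. Rpl8, a large subunit protein near the catalytic centre, stood at 1099 CPM in Cys and 1735 CPM in WT, 1.58-fold lower (1.52 to 1.64). Rpl3, which also reaches toward that centre, stood at 2008 CPM in Cys and 3026 CPM in WT, 1.51-fold lower (1.47 to 1.55). Rpl37 rested on 3 UMIs in Cys and 20 in WT, 8.23-fold lower (2.44 to 43.2). The 358 other genes of chromosome 15 with at least 100 UMIs in the 2 libraries had a median log2 ratio of -0.45 in Cys against WT, and the log2 ratios of Rpl8 and Rpl3 were -0.65 and -0.59. Just short of the threshold was Rpl5, which binds Mdm2 when outside the ribosome, at 2709.7 CPM in Cys and 4042 in WT, 1.49-fold lower (1.46 to 1.53). Rpl4 followed, 1.45-fold lower (1.42 to 1.47).

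Rps27l was the only member called higher in Cys. It is a paralog of Rps27 and a target of p53. Rps27l was read at 569 CPM in Cys, 386 in Bud, 281 in het, 579 in fetal and 332 in WT. Cys and fetal were thus alike and above the other libraries, while het was lowest. The ratio to WT was 1.71 in Cys (1.60 to 1.83), 1.16 in Bud, 0.847 in het (0.783 to 0.916) and 1.74 in fetal (1.63 to 1.86). In the p53 list of 13 genes, 11 (84.6%) were called higher in Cys, 3 (23.1%) in Bud, 1 (7.69%) in het and 10 (76.9%) in fetal, each against WT, and none lower, where the shares of all genes called higher were 17.6% in Cys, 5.79% in Bud, 8.43% in het and 29.4% in fetal. Ccng1, a cyclin-like p53 target, stood at 585 CPM in Cys, 584 in fetal and 104 in WT. Per cell, Rps27l took a median of 4.19 per 1000 ribosomal protein UMIs in Cys, 1.90 in Bud, 1.51 in het, 4.30 in fetal and 2.03 in WT, counted in cells with at least 500 such UMIs. Of Cys cells, 84.5% lay above the WT median, and of fetal cells 89.9%. Most cells of both libraries thus shared the difference in this share. The share is raised where ribosomal protein mRNA as a whole is low, and its summed level was 0.841 of WT in Cys and 0.754 in fetal.

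**Figure D2:**
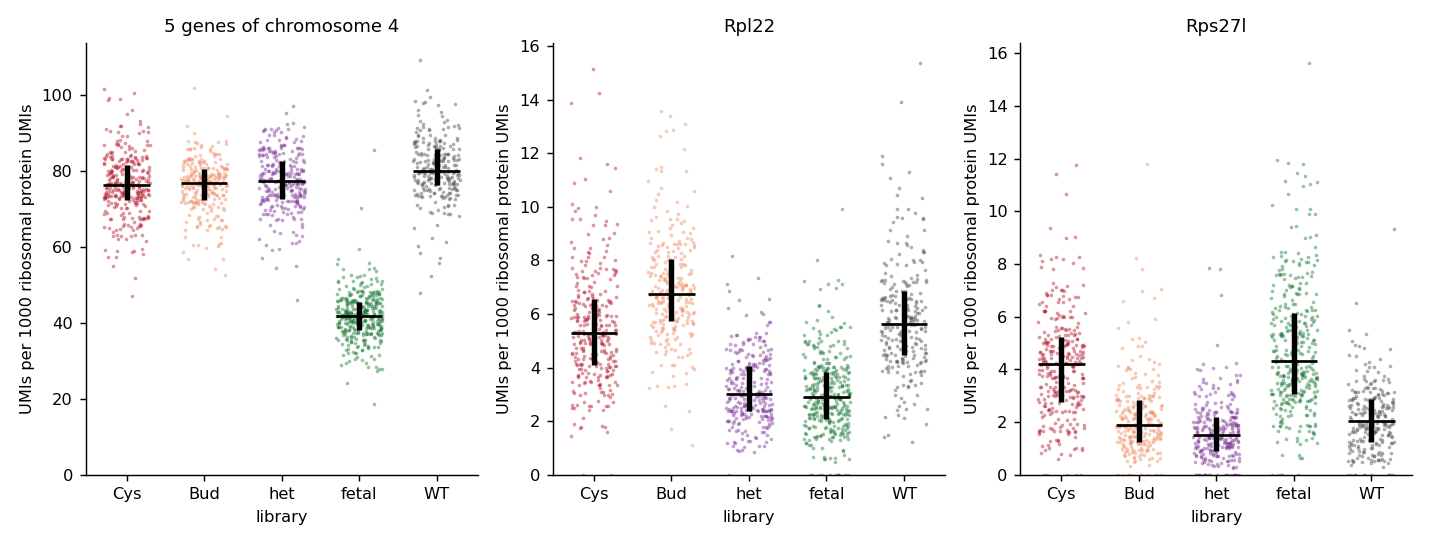
UMIs per 1000 ribosomal protein UMIs in each cell (y axis) by library (x axis) for the 5 genes of chromosome 4 summed, Rpl22 and Rps27l; points are cells with at least 500 ribosomal protein UMIs, thick bars the interquartile range and lines the medians. The chromosome 4 genes are lowest in fetal cells (median 41.9 against 80.0 in WT), Rpl22 is lowest in fetal and het, and Rps27l is highest in Cys and fetal.

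Bud organoids held more mRNA of most ribosomal proteins than WT. The median log2 ratio of members was 0.18, against -0.04 over all 11541 genes measured and -0.03 over the 1851 abundant ones. Of 77 members, 5 were called higher (5.79% of all genes measured) and 0 lower (8.67% of all genes). The higher count was 2 with equal weight per cell (9.56% of all genes). With het in place of WT, 5 were higher (8.94% of all genes) and 1 lower (11.7% of all genes). At the 1.2-fold threshold 29 members (37.7%) were higher, against 10.9% of all genes and 12.6% of the abundant ones. None was lower at that threshold, against 17.0% of all genes and 16.9% of the abundant ones. Members of both subunits were among them, 13 of the small and 16 of the large subunit. Stem markers summed to 991 CPM in Bud and 936 in WT, enterocyte markers to 1076 in Bud and 3176 in WT, and goblet markers to 1872 in Bud and 1278 in WT, with none of them at 0. Their part in the difference was not tested.

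Members called higher in Bud included Rps29, Rpl36al, Rps26 and Rpl37. Rps29, a small zinc-binding protein of the small subunit, was read at 1804 CPM in Cys, 2589 in Bud, 1869.5 in het, 957 in fetal and 1414 in WT. It was highest in Bud, at 1.83 times WT (1.77 to 1.89), and lowest in fetal. Rpl36al, a paralog of the large subunit protein Rpl36a, was read at 588 CPM in Cys, 718 in Bud, 466 in het, 407 in fetal and 426 in WT, a ratio of Bud to WT of 1.68 (1.59 to 1.79). Both genes lie on chromosome 12, where 292 other genes had a median log2 ratio of 0.26 in Bud against WT, less than the 0.87 of Rps29 and the 0.74 of Rpl36al. Rps7, the other member on chromosome 12, had a log2 ratio of 0.03, which is below that median. In Cys against WT the 308 other genes of chromosome 12 had a median of 0.40, beside 0.35 for Rps29, 0.45 for Rpl36al and 0.14 for Rps7, so that Rps29 and Rps7 fall below 0 after division by that median. Per cell, these 3 genes took a median of 42.6 per 1000 ribosomal protein UMIs in Cys, 36.1 in Bud, 32.2 in het, 30.9 in fetal and 30.3 in WT. Of Cys cells, 98.7% lay above the WT median, and of Bud cells 82.0%. These shares also depend on ribosomal protein mRNA as a whole, whose summed level was 0.841 of WT in Cys and 1.13 in Bud. Rps26, which contacts the mRNA near the exit, had 593 CPM in Bud and 387 CPM in WT, a ratio of 1.53 (1.44 to 1.63). Rpl37 rested on 37 UMIs in Bud and 20 in WT.

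Other members close to the threshold in Bud were Rpl13a at 2722 CPM in Bud and 1855 in WT (log2 ratio 0.55) and Rpl36a at 1041 CPM in Bud and 724 in WT (0.52). The lowest ratios in Bud belonged to abundant members. Rps6, the substrate of the S6 kinases, had 3926 CPM in Bud and 4263 CPM in WT (log2 ratio -0.12). Rpl10, the protein that joins the large subunit last, had 3638 CPM in Bud and 3812 CPM in WT (-0.07). The ratio of Bud to WT was 0.995 for Rpl5 (0.974 to 1.02) and 1.01 for Rpsa (0.990 to 1.03).

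In het organoids 62 of 77 members had a log2 ratio above 0 against WT, and few were called. The median log2 ratio of members was 0.13, against -0.02 over all 11652 genes measured, and it was 0.025 with equal weight per cell. Of 77 members, 3 were called higher (8.43% of all genes measured) and 1 lower (8.83% of all genes), or 1 higher (13.2% of all genes) and 2 lower (13.3% of all genes) with equal weight per cell. At the 1.2-fold threshold 15 (19.5%) were higher, against 14.9% of all genes and 14.7% of the abundant ones, and 2, Rpl22 and Rpl8, were lower, against 18.6% of all genes and 23.4% of the abundant ones. The log2 ratio of Rpl8, on chromosome 15, was -0.27, and 0.17 after division by the median of its chromosome. The higher members included Rpl37a and Rps15a. Rpl37a, a zinc-binding large subunit protein, was read at 993 CPM in Cys, 1129 in Bud, 1580 in het, 900 in fetal and 1038 in WT, so that het stood above all others, at 1.52 times WT (1.46 to 1.58). Rps15a rested on 68 UMIs in het and 27 in WT, a ratio of 2.31 (1.46 to 3.76). Enterocyte markers summed to 6119 CPM in het and 3176 in WT, goblet markers to 2136 CPM in het and 1278 in WT, and stem markers to 889.8 CPM in het and 936 in WT, and their part was not tested. Chromosome 1, which holds Rpl37a, carried a median log2 ratio of 0.27 over 474 other genes in het, and 0.52 over its 3 members Rpl7, Rpl31 and Rpl37a.

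Rpl22 was the only member called lower in het. Rpl22 is a large subunit protein that mice can live without, and its paralog Rpl22l1 is known to rise when it is missing. Rpl22 was read at 729 CPM in Cys, 1240 in Bud, 542 in het, 365 in fetal and 911 in WT. Het was 1.68-fold lower than WT (1.60 to 1.77), whereas the 5 members of chromosome 4 had a median log2 ratio of 0.05 in het and its 523 other genes one of -0.11. Per cell, Rpl22 took a median of 3.03 per 1000 ribosomal protein UMIs in het and 5.61 in WT, and 95.5% of het cells lay below the WT median. Rpl22l1 had 5 UMIs in Cys, 2 in Bud, 10 in het and 3 in WT, with no entry in fetal, too few to compare.

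**Figure D3:**
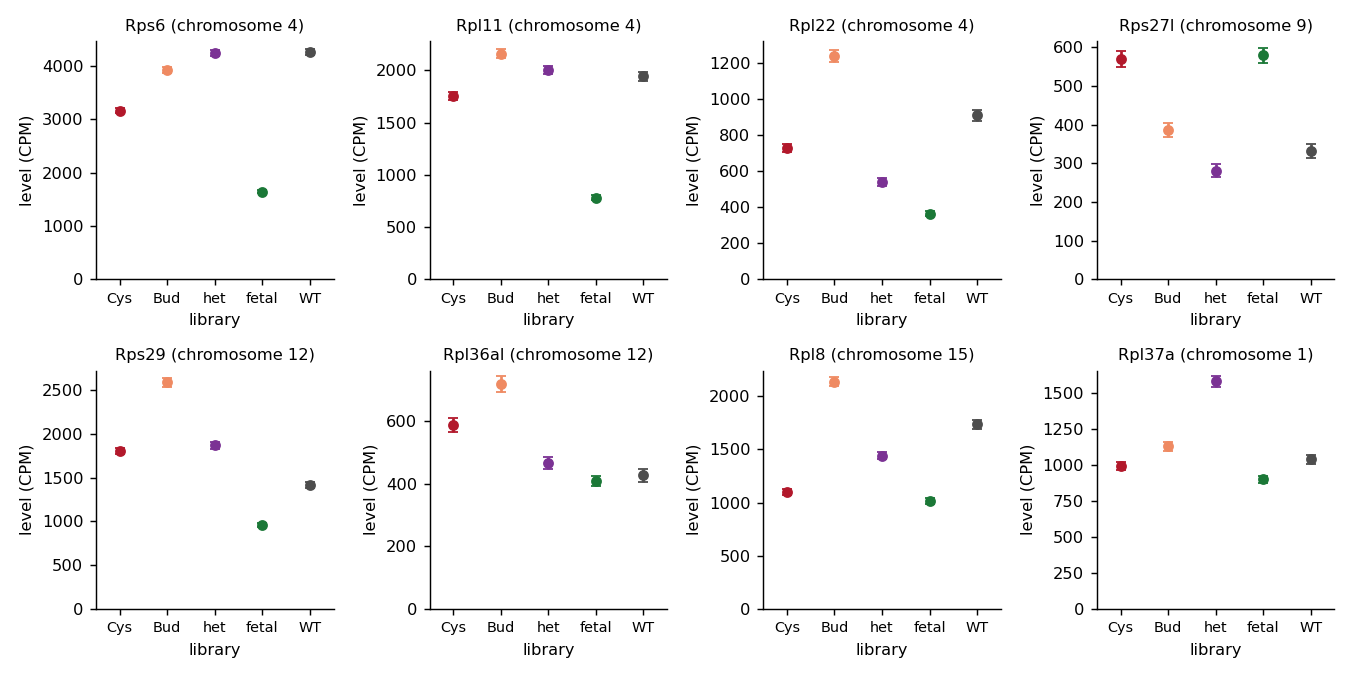
Levels in CPM (y axis) of 8 members by library (x axis); bars are exact Poisson 95% intervals, counting error only. Rpl22 is lowest in fetal and het, Rps27l highest in fetal and Cys, Rps29 and Rpl36al highest in Bud, and Rpl37a highest in het.

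Fetal organoids held the least ribosomal protein mRNA. The median log2 ratio of members against WT was -0.34, against 0.06 over all 12534 genes measured and -0.01 over the 1972 abundant ones. Of 77 members, 12 were called lower (22.3% of all genes measured) and 1, Rps27l, higher (29.4% of all genes). At the 1.2-fold threshold 54 members (70.1%) were lower, against 29.3% of all genes and 36.6% of the abundant ones. Only Rps27l was higher at that threshold, against 36.5% of all genes and 35.5% of the abundant ones. Both subunits took part, with medians of -0.35 for the small and -0.33 for the large subunit. Stem markers were lower in 5 of 5 genes and summed to 146 CPM in fetal, with Smoc2 at 0, against 936 in WT, and cycling markers to 746 in fetal against 1632 in WT. Enterocyte markers summed to 0.511 CPM in fetal, with Fabp1, Apoa1, Alpi and Sis at 0, against 3176 in WT. The part of these cell types was not tested.

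The 5 members on chromosome 4 stood lowest of all in fetal organoids. Rps6 was read at 3161 CPM in Cys, 3926 in Bud, 4246 in het, 1648 in fetal and 4263 in WT. Rps20 stood at 1161 CPM in fetal and 2867 in WT. Rpl11, which like Rpl5 binds Mdm2, stood at 782 CPM in fetal and 1941 in WT. Rpl22 stood at 365 CPM in fetal and 911 in WT. Among these, the folds below WT ran from 2.47 for Rps20 (2.40 to 2.54) to 2.59 for Rps6 (2.52 to 2.65). No member of another chromosome was 2-fold lower, and the next was Rpl10a at 1284 CPM in fetal and 2275 in WT, 1.77-fold lower (1.72 to 1.83). The 543 other genes of chromosome 4 were lower as well, with a median log2 ratio of -0.68 and 83.2% of them below 0, whereas the members' median was -1.30. On chromosome 15, Rpl8 stood at 1014 CPM in fetal and 1735 in WT, 1.71-fold lower (1.65 to 1.77), and Rpl3 at 1817 CPM in fetal and 3026 in WT, 1.67-fold lower (1.62 to 1.71), while 377 other genes had a median of -0.31. The remaining lower members were Rps26, Rplp1, Rpl14 and Rps12, on chromosomes 9 and 10, whose other genes had medians of 0.13 and 0.09. DNA was not measured, and the source of differences that run along a chromosome was not tested.

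**Figure D4:**
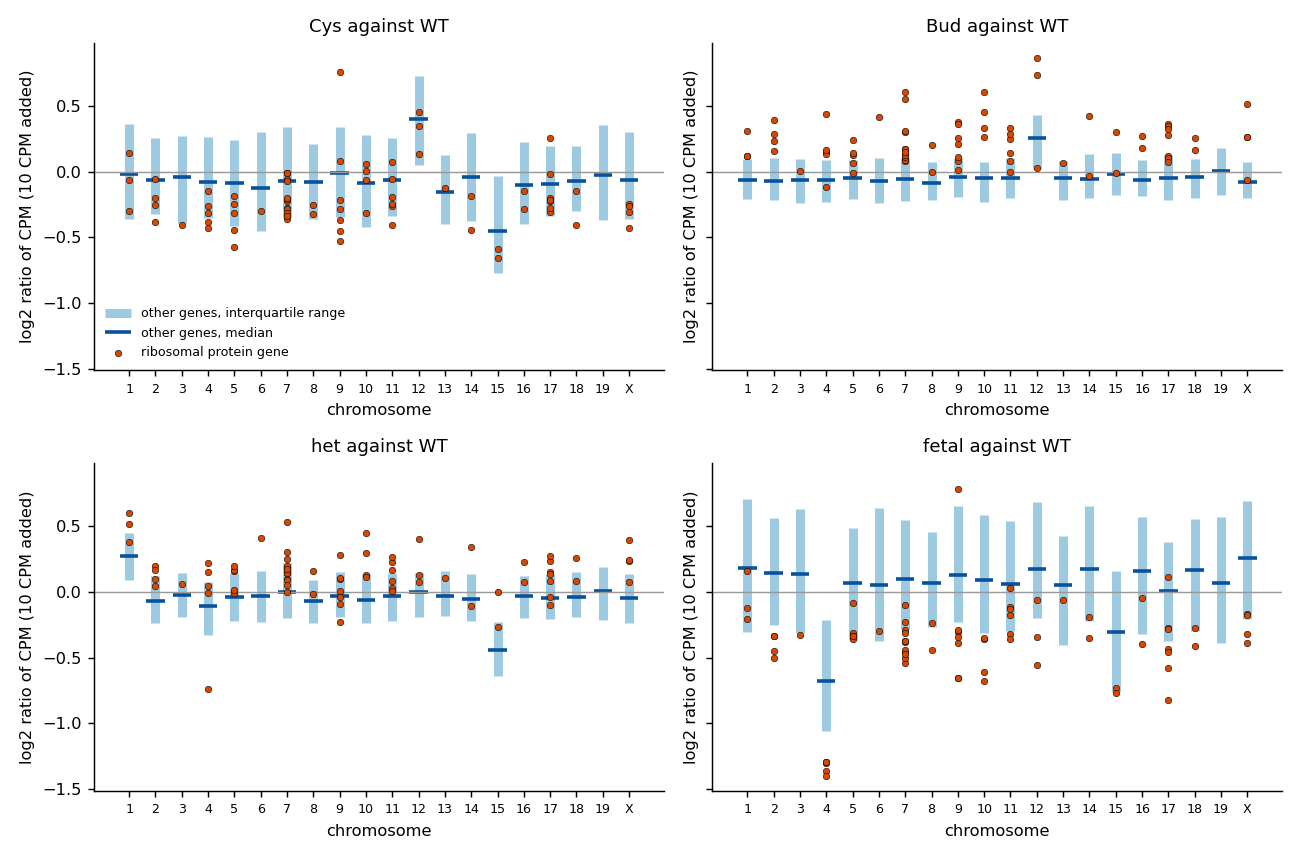
Log2 ratio of CPM (y axis, 10 CPM added) by chromosome (x axis) for Cys, Bud, het and fetal against WT; orange points are members with at least 100 UMIs in the libraries compared, blue lines the median and pale bars the interquartile range of the other genes of that chromosome. The other genes of chromosome 4 have a median of -0.68 in fetal, those of chromosome 15 -0.45 in Cys and -0.44 in het, and those of chromosome 12 0.40 in Cys and 0.26 in Bud.

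The chromosome 4 difference was seen in nearly every fetal cell. These 5 genes took a median of 76.2 per 1000 ribosomal protein UMIs in Cys cells, 76.9 in Bud, 77.3 in het, 41.9 in fetal and 80.0 in WT. Of 358 fetal cells with at least 500 ribosomal protein UMIs, 357 lay below the lower quartile of WT cells, and no Cys cell lay below the fetal median. With each ratio divided by the median of its chromosome, a setting chosen after seeing the data, the median member was at -0.44 in fetal against WT.

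**Figure D5:**
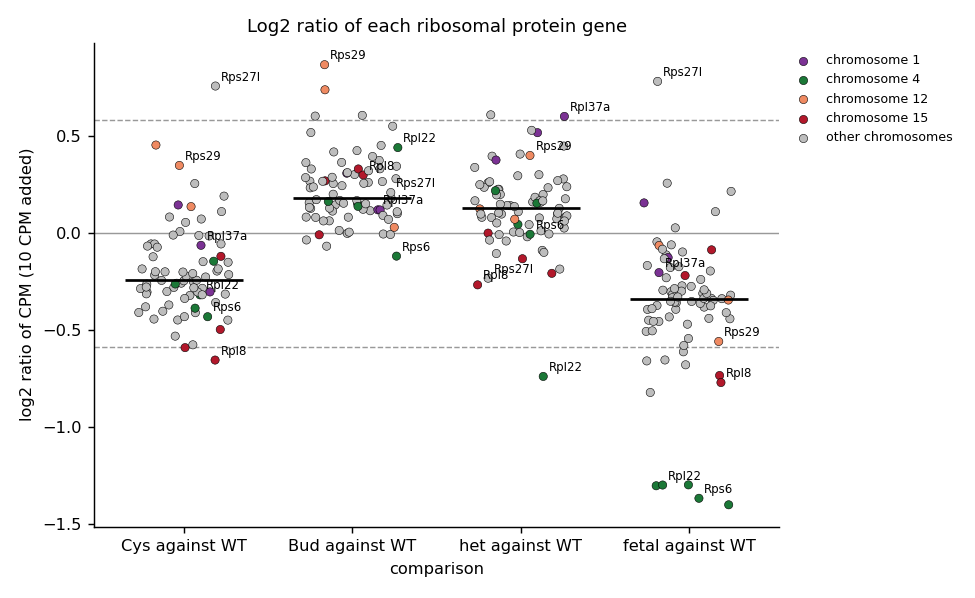
Log2 ratio of CPM against WT (y axis, 10 CPM added) of the 77 members in 4 comparisons (x axis), coloured by chromosome; black lines are medians and dashed lines the 1.5-fold thresholds. Medians are -0.24 in Cys, 0.18 in Bud, 0.13 in het and -0.34 in fetal, and the 5 green points of chromosome 4 stand below -1.2 in fetal.

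The Lkb1 -/- libraries stood on opposite sides of WT, so the median member differed more between them than between either and WT. Cys against Bud had a median log2 ratio of -0.45 over members, against -0.03 over all 11766 genes measured. Of 77 members, 22 were called lower (19.5% of all genes measured) and 0 higher (19.2% of all genes). At the 1.2-fold threshold 61 members (79.2%) were lower, against 28.4% of all genes and 33.4% of the abundant ones. At that threshold 1, Rps27l, was higher, against 26.2% of all genes and 29.6% of the abundant ones. The largest difference among members with at least 100 UMIs in the 2 libraries was that of Rpl8, at 1099 CPM in Cys and 2138 in Bud, 1.94-fold lower (1.88 to 2.01), with 355 other genes of chromosome 15 at a median of -0.43. Rps24 stood at 1319 CPM in Cys and 2415 in Bud, 1.83-fold lower (1.77 to 1.89). Log2 ratios above 0 were those of Rpl7 (0.03), Rpl34 (0.07), Rps7 (0.11), Rpl7l1 (0.16), a nucleolar relative of Rpl7, and Rps27l (0.55).

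Cys and fetal organoids, both low in ribosomal protein mRNA, differed less from each other than Cys did from Bud. Whether the median member of Cys lay nearer to fetal or to WT depended on the scaling, as given in the last section. Cys against fetal had a median log2 ratio of 0.12 over members, against -0.11 over all 12273 genes measured. Of 77 members, 8 were called higher (16.0% of all genes measured) and 1, Rpl37, lower (28.6% of all genes). Divided by the chromosome median, 4 were higher (17.2% of all genes). At the 1.2-fold threshold 23 (29.9%) were higher, against 22.5% of all genes and 29.1% of the abundant ones, and 2 lower, against 38.6% of all genes and 34.7% of the abundant ones. The 8 were the 5 members of chromosome 4, where Rpl11 stood at 1755 CPM in Cys and 782 in fetal, a ratio of 2.25 (2.17 to 2.33), and Rps29, Rpl10a and Rps26. Rps29 stood at 1804 CPM in Cys and 957 in fetal, a ratio of 1.88 (1.82 to 1.95). Rps27l stood at 569 CPM in Cys and 579 in fetal.

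Other genes of the translation machinery were counted beside the members. The 29 measured ribosome biogenesis genes had a median log2 ratio against WT of -0.29 in Cys, 0.14 in Bud, -0.19 in het and -0.38 in fetal, with 4 (13.8%) called lower in Cys, 0 in Bud, 2 (6.90%) in het and 11 (37.9%) in fetal. Of all genes, 22.0% were called lower in Cys, 8.67% in Bud, 8.83% in het and 22.3% in fetal. At this 1.5-fold threshold the share of biogenesis genes was above that of all genes in fetal and below it in the other 3. At the 1.2-fold threshold, 16 of the 29 were lower in Cys, 0 in Bud, 11 in het and 19 in fetal. Of all genes, 31.5% were lower in Cys, 17.0% in Bud, 18.6% in het and 29.3% in fetal at 1.2-fold. The 29 measured initiation factors had medians of -0.17 in Cys, 0.07 in Bud, -0.11 in het and -0.0024 in fetal. Called lower at 1.5-fold were 7 (24.1%) of them in Cys, 0 in Bud, 1 in het and 4 (13.8%) in fetal. Of those lower in Cys, Eif3d, Eif3e, Eif3h, Eif3l and Eif4b lie on chromosome 15, and Eif4a2 and Eif4ebp1 do not. The one lower in het was Eif3d. In fetal, Eif3e and Eif4b lie on chromosome 15, Eif3i on chromosome 4 and Eif4ebp1 on neither. The other genes of chromosome 15 had medians of -0.45 in Cys and -0.44 in het. Among the biogenesis genes, Dkc1, the pseudouridine synthase of rRNA, stood at 69.7 CPM in Cys and 113 in WT. Nop56, a core protein of box C/D particles, stood at 387 CPM in fetal and 658 in WT. The 76 measured mitochondrial ribosomal proteins had medians of -0.25 in Cys, 0.01 in Bud, -0.13 in het and -0.35 in fetal. The 16 measured elongation factors and other TOP mRNAs had medians of -0.17 in Cys, 0.20 in Bud, 0.15 in het and -0.32 in fetal. Pabpc1, the poly(A)-binding protein whose mRNA carries a TOP, stood at 2956 CPM in Cys, 6540 in Bud, 3870 in het, 3524 in fetal and 5931 in WT. It lies on chromosome 15, whose other genes had medians of -0.45 in Cys, -0.44 in het and -0.31 in fetal. RNA polymerase I genes had medians of 0.02 in Cys, 0.15 in Bud, 0.07 in het and -0.04 in fetal.

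Genes of the mTORC1 pathway showed no common direction. Of 28 genes, 1 (3.57%) was called higher in Cys than in WT, against 17.6% of all genes, and 5 (17.9%) lower, against 22.0%. In Bud 4 (14.3%) were higher, against 5.79% of all genes, and 2 (7.14%) lower, against 8.67%. In het none was called, against 8.43% of all genes higher and 8.83% lower. In fetal 2 (7.14%) were higher, against 29.4% of all genes, and 8 (28.6%) lower, against 22.3%. Median log2 ratios against WT were -0.06 in Cys, Bud and het and -0.09 in fetal. Of the lower genes in fetal, Mtor, Rps6ka1 and Prkaa2 lie on chromosome 4, whose other genes had a median of -0.68. Eif4ebp1, the translation repressor that mTORC1 inactivates, stood at 127 CPM in Cys, 213 in Bud, 227 in het, 162 in fetal and 306 in WT, below WT in each other library. Stk11 itself stood at 9.03 CPM in Cys, 11.7 in Bud and 20.6 in WT. Where the gene was edited is not stated and only the 3' end was read, so these levels do not check the genotypes. Protein levels, translation and TOP occupancy were not measured, and mRNA levels do not report them.

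Relative to counting error, members varied from cell to cell by different amounts. Over cells of one library with at least 500 ribosomal protein UMIs, the variance of a member's count relative to that expected from counting alone had a median over members of 1.34 in Cys, 1.56 in Bud, 1.52 in het, 1.39 in fetal and 1.503 in WT. Rpsa stood first in Bud (3.69), het (4.67) and WT (3.72), the second in Cys (2.64) and the third in fetal (4.09). Rps2 was among the first 5 in each library, at 2.44 in Cys, 3.34 in Bud, 3.20 in het, 4.18 in fetal and 3.05 in WT. Rpl17 stood first in Cys, at 3.90. For the same relative spread between cells, this variance ratio rises with a member's count. Abundant members such as Rpsa and Rps2 therefore tend to stand high, and the order was not adjusted for level.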

How the data were processed

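Gene-by-well tables were deposited for each library. The UMI tables, deposited by the authors as raw counts, gave every value. The deposited transcript tables hold estimated counts, which equalled the UMI counts corrected for 4096 identifier codes, and served as an alternative. Per the submitters' processing notes, the tools included STAR (2.6.1), featureCounts (1.5.2) and Seurat (4.1.0), with the genome GRCm38.

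Wells with at least 1000 UMIs outside spike-ins were kept and summed per library. A gene was measured with at least 10 UMIs in the 2 libraries compared. Python 3.11.15, numpy 2.4.6, pandas 2.3.3 and scipy 1.17.1 were used, and the calls were tested on simulated data. No doublet caller was run on these sorted wells. Chromosomes in the tables matched GENCODE for all 77 members. Members and gene lists were chosen with earlier results of these data known. Named members were the 5 most abundant in WT, the 5 largest and 5 smallest log2 ratios per comparison among members with at least 100 UMIs, paralogs with their parents and 10 well-known members. Genes named elsewhere were chosen after their values were seen, or were up to 4 per other list by size of ratio. Some genes that this rule names are not reported here.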

Additional observations from a re-analysis of the deposited data

How the results depend on the processing

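No paired analysis was possible because each group had 1 library. No median changed direction under the alternatives run. Among members named by the rule, no called ratio changed direction under the 8 alternatives run for single genes. Called ratios of members outside that rule, such as Rpl37 and Rps15a, were not followed. Ratios of named members that were not called changed sign 85 times, 29 of them with division by the chromosome median, 19 with median-of-ratios scaling and 16 with equal weight per cell. With division by the chromosome median, Rps29 in Cys stood at -0.05 (0.35 undivided) and Rpl8 in het at 0.17 (-0.27 undivided). Named members gave 228 log2 ratios, of which 499 values under 8 alternatives moved beyond their counting interval and 1325 did not; most moves came with equal weight per cell, with median-of-ratios scaling and with division by the chromosome median. Of 216 values of the counts, medians and shares, 58 moved. The causes were not tested. At a 1.2-fold threshold the members called were 4 higher and 33 lower in Cys against WT, 29 higher in Bud, 15 higher and 2 lower in het, 54 lower in fetal, 1 higher and 61 lower in Cys against Bud, and 23 higher and 2 lower in Cys against fetal. With het in place of WT, Cys had 2 higher and 16 lower (median log2 ratio -0.38), and Bud 1 lower (median 0.077). With equal weight per cell and against WT, Cys had 6 lower (26.2% of all genes) and Bud 2 higher (9.56% of all genes). In that setting het had 1 higher (13.2% of all genes) and 2 lower (13.3% of all genes), with a median of 0.025. Fetal had 2 higher (29.8% of all genes). Cys against fetal had 2 lower (31.3% of all genes), with a median of 0.074. Median-of-ratios scaling shifted all Cys against fetal ratios by 0.13 on the log2 scale. With it, Cys had 1 lower (19.0% of all genes), with a median of -0.15. Cys against Bud then had 1 higher (20.8% of all genes), with a median of -0.39, and Cys against fetal a median of 0.25. Without Rn45s in the total, the median was -0.20 in Cys against WT, -0.40 in Cys against Bud and 0.17 in Cys against fetal. In that setting 1 member was higher in Cys against Bud (20.5% of all genes). With ratios divided by the chromosome median, chosen after seeing the data, Cys had 1 lower (19.5% of all genes), with a median of -0.17. Medians were then 0.24 in Bud, 0.18 in het and -0.44 in fetal. Cys against fetal had a median of 0.26 in that setting, with 4 higher (17.2% of all genes). With at least 50 UMIs per gene, Cys against fetal had 0 lower (27.3% of all genes). The share of UMIs was 13.1% in Cys, 17.3% in Bud, 16.1% in het, 12.1% in fetal and 16.0% in WT with equal weight per cell. Without Rn45s it was 14.4% in Cys, 18.6% in Bud, 17.98% in het, 12.4% in fetal and 16.6% in WT. Without wells rich in Kcnq1ot1 it was 13.6% in Cys, 18.3% in Bud, 17.8% in het and 16.1% in WT. At a minimum of 5000 UMIs per well it was 13.6% in Cys, 18.2% in Bud and 17.7% in het, and it was 13.4% in Cys when taken from the transcript table. Counts were high enough that sampling error was small for most members; what is missing is a second culture of any group.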
